A study of Mus musculus with 15 samples.

Results

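A set of 6 genes that supply, consume or export the glycerol backbone of triglyceride in fat cells were followed across 15 RNA-seq libraries: Pck1, Pck2, Pcx, Gpd1, Gpd2 and Aqp7. They were taken by name, as the enzymes of glyceroneogenesis with the glycerol channel of fat cells, and the rule itself used no measured value, although earlier results of these data were known when the set was proposed. All 6 were in the authors' deposited table of 24421 gene symbols, and all 6 were among the 14421 genes that passed the low-count filter. The cells were MAP cells, an immortalized line derived from mouse adipocyte progenitors. Their differentiation into adipocytes began with 2 days in a mix of rosiglitazone, dexamethasone, isobutylmethylxanthine and insulin. A step of 2 days in rosiglitazone and insulin alone followed. The rosiglitazone dose given for differentiation is 1 µM. Every group, the controls included, had therefore been exposed to rosiglitazone, an agonist of the fat cell receptor PPARγ, before the experiment began. At day 7 to 8 the adipocytes were given vehicle (group vehicle), forskolin for 4 hours (FSK4h), forskolin for 1 day (FSK1D), forskolin for 3 days (FSK3D) or rosiglitazone for 3 days (Rosi3D), with 3 libraries in each group. Forskolin activates adenylyl cyclase and raises cAMP, the second messenger of β-adrenergic signalling. Neither the treatment doses of both agents nor the day of collection of the vehicle cells is stated in the labels, so that treatment and days in culture cannot be told apart. The cells are 1 immortalized line, and the labels do not say whether the 3 libraries of each group are separate cultures. If they are not, the p-values reflect technical spread alone.

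Glyceroneogenesis is the making of glycerol 3-phosphate from pyruvate or amino acids rather than from glucose. Fat cells use it to hold on to fatty acids, because the glycerol 3-phosphate re-esterifies fatty acids that lipolysis has just set free. Pyruvate carboxylase, encoded by Pcx, makes oxaloacetate from pyruvate in mitochondria. Phosphoenolpyruvate carboxykinase turns oxaloacetate into phosphoenolpyruvate, and it exists as a cytosolic enzyme encoded by Pck1 and a mitochondrial enzyme encoded by Pck2. After the return to triose phosphate, cytosolic glycerol 3-phosphate dehydrogenase (Gpd1) makes glycerol 3-phosphate, and the mitochondrial enzyme (Gpd2) oxidizes it back and passes the electrons to the respiratory chain. Aqp7 is the aquaglyceroporin through which glycerol freed by lipolysis leaves the fat cell. In thermogenic fat, the Gpd1 and Gpd2 pair also works as a shuttle for cytosolic reducing equivalents. Pck1 is a textbook target of both cAMP, through CREB, and PPARγ, and Pck2 is known as a target of ATF4, the transcription factor of the amino acid response.

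The stretches upstream of Pck1 and Pck2 are shown because the cytosolic and the mitochondrial gene parted most clearly after 4 hours of forskolin. The sequences are from RefSeq on GRCm38.p6, read 5′ to 3′ on the strand of the gene, and each ends just before the gene's start in GENCODE, which for Pck1 lies upstream of the RefSeq start. Capitals mark the cAMP response element in Pck1 and the match to the core of an ATF4 response element in Pck2.
Pck1 (chr2:173152823-173153047, plus strand): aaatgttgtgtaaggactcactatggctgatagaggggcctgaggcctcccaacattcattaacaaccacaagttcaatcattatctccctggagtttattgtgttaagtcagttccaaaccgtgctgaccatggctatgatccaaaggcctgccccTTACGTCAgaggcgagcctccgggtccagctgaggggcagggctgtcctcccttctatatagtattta
Pck2 (chr14:55540016-55540265, plus strand): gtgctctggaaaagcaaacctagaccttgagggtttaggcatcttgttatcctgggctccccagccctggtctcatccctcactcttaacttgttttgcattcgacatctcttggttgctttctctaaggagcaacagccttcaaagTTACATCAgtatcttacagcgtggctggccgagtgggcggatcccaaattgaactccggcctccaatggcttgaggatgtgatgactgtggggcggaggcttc
The cAMP response element of Pck1, TTACGTCA, lay 93 to 86 bases before the RefSeq start. Motifs were searched in the full 250 bases before each RefSeq start, of which the printed Pck1 stretch leaves out the last part. The same letters on either strand occurred in 0.447% of the 32851 promoter windows of 250 bases in the table. It contains the half-site TGACG on the opposite strand, which 17.8% of windows held. The palindromic element TGACGTCA occurred in 1.55% of windows, and no window of a member held it. The Pck2 window held TTACATCA, which is a match on the opposite strand to TGATGNAA, 103 to 96 bases before its start, and 3.45% of windows held that core. The DR1 repeat, an ideal form of the site bound by PPARγ with its partner RXR, occurred in 0.0335% of windows and in no window of a member, and TATAAA, in 12.4% of windows, matched none either. Windows were found for 5 of the 6 genes, Pck1, Pck2, Pcx, Gpd2 and Aqp7. A match describes letters in a window and not a bound site, and no match says only that these letters are not in that window.

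On GRCm38 with the GENCODE vM21 annotation, all 6 are protein-coding genes. Pck1 lies on chromosome 2 from 173153048 to 173159273 and Gpd2 on the same chromosome from 57237635 to 57370719, both on the plus strand. Pck2 lies on chromosome 14 from 55540266 to 55551242, Gpd1 on chromosome 15 from 99717515 to 99725005 and Pcx on chromosome 19 from 4510472 to 4621752, all on the plus strand. Aqp7 lies on chromosome 4 from 41033074 to 41048139 on the minus strand. Counts are per gene and do not separate exons, untranslated regions or isoforms. Exons of Gpd2 share 487 bases with A930012O16Rik, those of Gpd1 share 384 bases with Gm16537 and those of Pck2 share 53 bases with Gm10876, each on the opposite strand. How strand was handled is not stated in the labels or file headers, so reads of these antisense partners cannot be told apart from those of the genes.

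The shallowest library was FSK3D S11 with 14056200 counts and the deepest Rosi3D S13 with 56282582, and the lowest count of any of the 6 genes in a library was 280, for Pck1 in FSK1D S8 and S9. Of the 10 mature adipocyte markers, among them Adipoq, Plin1 and Fabp4, none was at 0 in any group. Their summed level was 12933 to 14662 CPM (counts set to one library size, after TMM factors that correct for RNA composition) in vehicle and 13428 to 15275 CPM after 4 hours of forskolin. It was 10205 to 11565 CPM in FSK1D, then 21530 to 22488 CPM in FSK3D, and 21743 to 22722 CPM with rosiglitazone. Lpl and Cfd, at means of 4866 and 4698 CPM, made up most of the vehicle mean of 13835 CPM. The markers did not all move together. Cfd was at 7203 CPM in FSK3D and 2054 in Rosi3D, and Cd36 at 984 and 4650. In FSK1D 4 of the 10 were called lower and 1 higher, and Cidec was at 397 CPM there against 278 in vehicle. The summed adipocyte marker level was lowest in FSK1D and highest at 3 days. Pck1, Pcx and Aqp7 had their lowest mean in FSK1D, and Pck2, Pcx, Gpd1 and Aqp7 their highest in Rosi3D. How many of all tested genes had their lowest or highest mean in these groups was not counted. The part of the marker level in the changes of the 6 genes was not tested. The 10 progenitor markers summed to 1615 to 1724 CPM in vehicle and to 973 to 1009 CPM in Rosi3D, with 1767 to 1871, 1806 to 1868 and 1464 to 1586 CPM at the 3 forskolin times. Itgb1 alone was 914 of the vehicle mean of 1674 CPM. Under forskolin single progenitor markers moved in opposite directions. Pdgfrb was at 402 CPM in vehicle, 154 in FSK4h and 209 in FSK1D. Pdgfra went from 209 CPM in vehicle to 373 in FSK4h, and Ly6a from 121 in vehicle to 431 in FSK1D. Liver also makes Pck1 and Pcx. The liver markers Alb and Ttr were at 0.131 CPM or less in every group mean. The summed liver list was nearly all Apob, at 192 CPM in vehicle. Apob was at 174, 152 and 78.7 CPM at the 3 forskolin times and 72.7 in Rosi3D. Apoc3 was at 1.96 CPM in vehicle and 4.78 in Rosi3D. The 8 macrophage markers summed to 4.69 to 5.06 CPM in vehicle, 9.95 to 11.8 in FSK4h and 10.4 to 11.8 in FSK1D, and to 5.18 to 6.10 and 3.08 to 4.40 CPM at 3 days of forskolin and rosiglitazone. Of the 3 of them tested, 2 were called higher in FSK4h and in FSK1D, and Adgre1 was at 0 in all libraries of both groups. The 6 endothelial markers summed to 7.65 to 11.3 CPM in vehicle and 6.60 to 7.12 in FSK4h, then 4.32 to 5.70 after 1 day and 7.54 to 8.36 after 3 days of forskolin, against 3.58 to 5.34 CPM with rosiglitazone. The part of the liver, macrophage and endothelial marker levels in the results was not tested. In bulk RNA, fewer cells of a type and less RNA per cell cannot be told apart.

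The 6 genes sat at very different levels in the vehicle cells. Scaled by the gene length in the deposited table, Gpd1 led with 348 ± 33.8 CPM per kilobase (SD, n = 3), followed by Pcx with 268 ± 13.04. Gpd2 at 23.2 ± 0.557 and Aqp7 at 22.0 ± 2.35 CPM per kilobase came next. Pck2 followed at 13.6 ± 0.492 and Pck1 was the lowest at 6.44 ± 0.810. Of the 2 carboxykinase genes, the mitochondrial one was thus the more abundant transcript in untreated MAP adipocytes.

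Both treatments moved the genes, but with different profiles. In Rosi3D all 6 genes were higher than in vehicle, and they were called (edgeR quasi-likelihood test, Benjamini-Hochberg adjusted p under 0.05 over all tested genes) where 60.6% of all tested genes were called and 28.6% were called higher and 32.0% lower. In FSK4h, 2 were higher (Pck1, Gpd2), 2 were lower (Gpd1, Aqp7) and 2 were not called (Pck2, Pcx), against 59.0% of tested genes called, 28.4% higher and 30.7% lower. In FSK1D none was higher, 3 were lower (Pck1, Pcx, Aqp7) and 3 were not called, against 40.2% of tested genes called, 19.5% higher and 20.7% lower. In FSK3D, 5 were higher and Aqp7 was not called, against 52.9% of tested genes called, 25.9% higher and 27.0% lower. The median log2 fold change of the 6 was -0.04, -0.15 and 0.42 at the 3 forskolin times and 1.51 in Rosi3D, and that of all tested genes was -0.03, -0.02, 0.01 and -0.01. The 4 comparisons share the vehicle libraries. The share of called genes that were higher in FSK4h was 48.1%, and 27.3% when libraries were scaled by their totals alone. That scaling moved the median of all genes by -0.19 in FSK4h against vehicle, and the log2 changes below at that time are relative to the TMM scale.

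**Figure D1:**
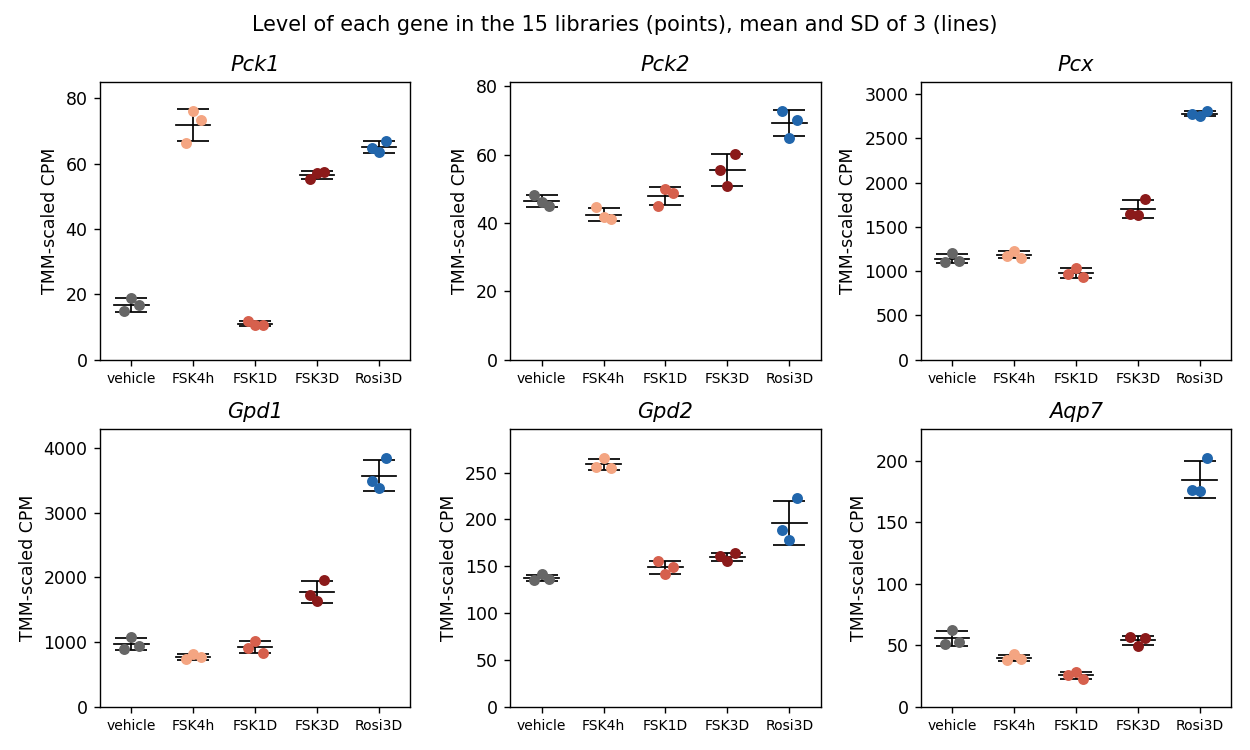
TMM-scaled CPM (vertical axes, starting at 0) of Pck1, Pck2, Pcx, Gpd1, Gpd2 and Aqp7 in the 15 libraries, with points for libraries and lines for the mean and SD of the 3 libraries of a group. Pck1 was at 66.3 to 76.0 CPM in FSK4h and at 10.6 to 11.9 CPM in FSK1D, while Gpd1, Pcx and Aqp7 had their highest libraries in Rosi3D.

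Pyruvate carboxylase transcript was gained at 3 days with either drug. Pcx, whose enzyme supplies oxaloacetate, stood at 1105, 1207 and 1116 CPM in the vehicle libraries and at 1172, 1227 and 1151 CPM in FSK4h. These ranges overlapped, and the log2 fold change was 0.05 ± 0.048 (SE, n = 3 per group) with an edgeR adjusted p of 0.375 and a 95% interval of -0.05 to 0.15. Scaled by library totals alone it was -0.14, with an edgeR adjusted p of 0.00654. In FSK1D the libraries were at 964, 1036 and 932 CPM, all below vehicle, and the gene fell by 0.23 ± 0.048 on the log2 scale (edgeR adjusted p = 2.22e-04). By FSK3D they had reached 1643, 1637 and 1815 CPM, all above vehicle, a rise of 0.57 ± 0.048 (edgeR adjusted p = 3.47e-12). Between 1 and 3 days of forskolin the gene therefore rose by 0.80 ± 0.048 (edgeR adjusted p = 9.84e-16). In Rosi3D the 3 libraries were at 2778, 2748 and 2803 CPM, a rise of 1.28 ± 0.048 (2.43-fold, edgeR adjusted p = 1.50e-21) that no forskolin library reached.

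The cytosolic carboxykinase had the largest swings of the 6 under forskolin. Pck1 was at 14.8, 19.0 and 16.7 CPM in vehicle and at 66.3, 76.0 and 73.3 CPM after 4 hours of forskolin. Every FSK4h library was above every vehicle library, with a log2 fold change of 2.09 ± 0.074 (4.27-fold, edgeR adjusted p = 1.74e-22), and 1.50% of tested genes had a higher log2 value. After 1 day the libraries had dropped to 11.9, 10.6 and 10.7 CPM, below all 3 vehicle libraries. Against vehicle Pck1 fell by 0.60 ± 0.085 on the log2 scale (edgeR adjusted p = 4.22e-07), and against FSK4h it fell by 2.69 ± 0.079 (6.47-fold, edgeR adjusted p = 2.48e-24). Only 45 of the 14421 tested genes had a lower log2 value in that comparison of 1 day with 4 hours. At 3 days the libraries were back at 55.3, 57.1 and 57.6 CPM. That was 1.75 ± 0.075 above vehicle (edgeR adjusted p = 1.97e-19), 2.35 ± 0.080 above FSK1D (5.10-fold, edgeR adjusted p = 4.50e-22) and 0.34 ± 0.069 below FSK4h (edgeR adjusted p = 4.75e-05). The profile over time was up, down and up again, with no overlap between the libraries of the 3 forskolin times.

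Rosiglitazone for 3 days also raised Pck1. The Rosi3D libraries were at 64.9, 63.6 and 67.0 CPM, a rise of 1.95 ± 0.074 over vehicle (3.87-fold, edgeR adjusted p = 1.82e-21). They overlapped those of FSK4h and lay above all 3 FSK3D libraries. FSK3D was lower than Rosi3D by 0.20 ± 0.069, a 95% interval of -0.34 to -0.06 on the log2 scale (edgeR adjusted p = 0.0164). That call was lost without FSK3D S10 (edgeR adjusted p = 0.0628) or without Rosi3D S15 (edgeR adjusted p = 0.0540), while the difference stayed between -0.22 and -0.19. The order of the group means from low to high was FSK1D, vehicle, FSK3D, Rosi3D and FSK4h, and Rosi3D and FSK4h were the neighbours whose libraries overlapped.

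The mitochondrial carboxykinase moved little under forskolin. Pck2 was at 48.2, 46.1 and 44.9 CPM in vehicle, at 44.6, 41.7 and 41.1 in FSK4h and at 44.9, 50.0 and 48.8 in FSK1D. The FSK4h libraries were just below the vehicle libraries and the FSK1D libraries overlapped them. Neither difference from vehicle was called, at -0.13 ± 0.065 (edgeR adjusted p = 0.0914) and 0.05 ± 0.065 (edgeR adjusted p = 0.619), with 95% intervals of -0.26 to 0.00 and -0.09 to 0.18. Scaled by library totals alone, the FSK4h difference was -0.32 (edgeR adjusted p = 4.44e-05). FSK3D libraries at 55.6, 50.8 and 60.3 CPM were all above vehicle, a rise of 0.27 ± 0.065 (edgeR adjusted p = 7.13e-04). Rosi3D libraries at 72.6, 65.0 and 70.0 CPM were the highest of all, a rise of 0.58 ± 0.063 (edgeR adjusted p = 9.15e-10). Between forskolin times, FSK1D was above FSK4h by 0.17 ± 0.065 (edgeR adjusted p = 0.0230) and FSK3D above FSK1D by 0.22 ± 0.065 (edgeR adjusted p = 0.00459). The first of these calls was lost without FSK4h S5, FSK4h S6, FSK1D S8 or FSK1D S9, with edgeR adjusted p-values of 0.0634, 0.0874, 0.0992 and 0.0625. The second was lost without FSK1D S7 or FSK3D S12, with edgeR adjusted p-values of 0.0603 and 0.0900.

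The isozymes moved by different amounts, and the balance of cytosolic to mitochondrial carboxykinase transcript per length changed sign in FSK4h, FSK3D and Rosi3D. The ratio of Pck1 to Pck2 counts per length, taken within each library and so free of library scaling, was 0.400 to 0.537 in vehicle and 1.93 to 2.37 in FSK4h. It was 0.276 to 0.346 in FSK1D. At 3 days it was 1.24 to 1.46 with forskolin and 1.16 to 1.27 with rosiglitazone. Pck2 was thus the more abundant transcript per length in all vehicle and FSK1D libraries and Pck1 in all others. Without division by length (2616 bases for Pck1, 3400 for Pck2), Pck1 counts were above Pck2 counts in all FSK4h libraries. They were below in all Rosi3D libraries (for example 3686 against 4127 in S13) and in FSK3D S10 (1355 against 1363) and S12 (1810 against 1896). The sign at 3 days thus rests on the lengths used. The mean log2 ratio differed from vehicle by 2.23, -0.64 and 1.50 after 4 hours, 1 day and 3 days of forskolin, and by 1.38 with rosiglitazone. Each difference separated the 3 treated from the 3 vehicle libraries, with a two-sided exact permutation p of 0.10, the smallest that 3 against 3 allows (0.114 adjusted over 8 tests). Gene length was that of the deposited table, and reads from shorter isoforms would move the ratio itself but not its differences between groups unless isoform use changed.

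**Figure D2:**
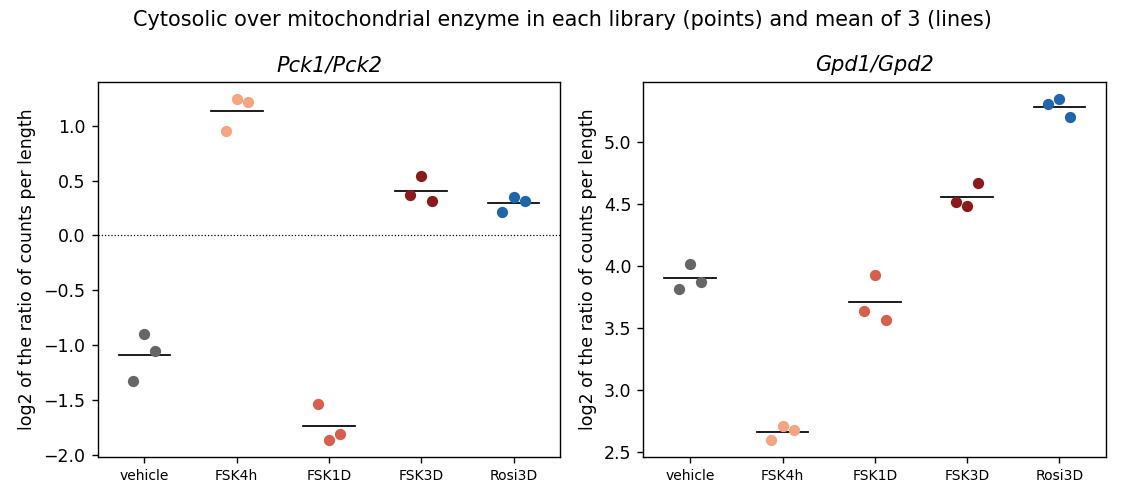
The log2 ratio of counts per length of Pck1 over Pck2 (left) and Gpd1 over Gpd2 (right) in each of the 15 libraries, with a line at the mean of each group of 3 and a dotted line at an equal level for the carboxykinases. The Pck1 over Pck2 means were -1.09 in vehicle, 1.14, -1.73 and 0.41 at the 3 forskolin times and 0.29 in Rosi3D.

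The cytosolic and the mitochondrial glycerol 3-phosphate dehydrogenase went in opposite directions at 4 hours. Gpd1, which makes glycerol 3-phosphate, was at 895, 1076 and 940 CPM in vehicle and at 731, 817 and 767 CPM in FSK4h. All FSK4h libraries were lower, a fall of 0.33 ± 0.093 on the log2 scale (edgeR adjusted p = 0.00817). Gpd2, which consumes it, was at 135, 141 and 136 CPM in vehicle and at 256, 265 and 255 CPM in FSK4h. All FSK4h libraries were higher, a rise of 0.91 ± 0.057 (1.88-fold, edgeR adjusted p = 4.63e-15). Within each FSK4h library the ratio of Gpd1 to Gpd2 per length was 6.07 to 6.56, against 14.1 to 16.2 in vehicle. The mean log2 ratio fell by 1.24 with no overlap (two-sided exact permutation p = 0.10, the smallest possible, 0.114 adjusted over 8 tests).

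After 1 day neither dehydrogenase was called against vehicle. Gpd1 in FSK1D was at 911, 1015 and 827 CPM, which overlapped vehicle, with a log2 fold change of -0.08 ± 0.093 (edgeR adjusted p = 0.548, 95% interval -0.28 to 0.12). Its sign turned to 0.02 without vehicle S2 and to 0.01 without FSK1D S9. Gpd2 in FSK1D was at 156, 142 and 149 CPM, all above vehicle, at 0.11 ± 0.057 (edgeR adjusted p = 0.120). It was called with no low-count filter (0.13, edgeR adjusted p = 0.0451), in a fit of these 2 groups alone (0.13, edgeR adjusted p = 0.0333) and without FSK1D S8 (0.16, edgeR adjusted p = 0.0397). Relative to FSK4h, Gpd2 fell by 0.80 ± 0.057 (edgeR adjusted p = 1.75e-13) while Gpd1 rose by 0.25 ± 0.093 (edgeR adjusted p = 0.0356). The Gpd1 call was lost without FSK4h S4, FSK4h S6, FSK1D S7 or FSK1D S8, with edgeR adjusted p-values of 0.111, 0.0801, 0.0628 and 0.123.

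At 3 days both dehydrogenase genes were above vehicle. Gpd1 in the FSK3D libraries was at 1729, 1627 and 1961 CPM, all above vehicle, a rise of 0.87 ± 0.094 (1.83-fold, edgeR adjusted p = 3.64e-06). Compared with FSK4h the gene rose by 1.20 ± 0.094 (2.30-fold, edgeR adjusted p = 8.03e-08). Gpd2 in FSK3D was at 161, 155 and 164 CPM, above vehicle by 0.22 ± 0.057 (edgeR adjusted p = 0.00172) and overlapping FSK1D (0.11 ± 0.057, edgeR adjusted p = 0.124). In Rosi3D, Gpd1 reached 3489, 3389 and 3844 CPM, a rise of 1.88 ± 0.096 over vehicle (3.68-fold, edgeR adjusted p = 9.04e-10). Gpd2 there was at 189, 178 and 223 CPM, a rise of 0.51 ± 0.057 (edgeR adjusted p = 2.41e-09), with Rosi3D S15 the highest of the 3. The ratio of Gpd1 to Gpd2 per length was 11.8 to 15.2 in FSK1D, which overlapped vehicle (exact permutation p = 0.30), then 22.3 to 25.4 at 3 days of forskolin and 36.7 to 40.6 with rosiglitazone. Gpd1 was the more abundant transcript per length in all 15 libraries, while the size of its lead ran from 6.07-fold to 40.6-fold.

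The glycerol channel separated the 2 drugs most. Aqp7 was at 51.4, 62.3 and 52.9 CPM in vehicle, at 37.8, 42.6 and 38.7 in FSK4h and at 25.3, 28.1 and 22.7 in FSK1D. The FSK4h libraries were all lower than vehicle (fell by 0.49 ± 0.081 on the log2 scale, edgeR adjusted p = 1.95e-05) and the FSK1D libraries lower again (fell by 1.13 ± 0.085, 2.19-fold, edgeR adjusted p = 1.45e-10). In FSK3D the libraries were at 56.6, 49.6 and 55.5 CPM and overlapped vehicle, at -0.04 ± 0.081 (edgeR adjusted p = 0.730, 95% interval -0.21 to 0.13). The sign of this small difference turned to 0.06 without vehicle S2 and to 0.03 without FSK3D S11. In Rosi3D the libraries were at 176, 176 and 202 CPM, a rise of 1.73 ± 0.078 (3.32-fold, edgeR adjusted p = 4.72e-15). Every Rosi3D library was more than any forskolin or vehicle library by a wide margin, the nearest being vehicle S2 at 62.3 CPM.

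**Figure D3:**
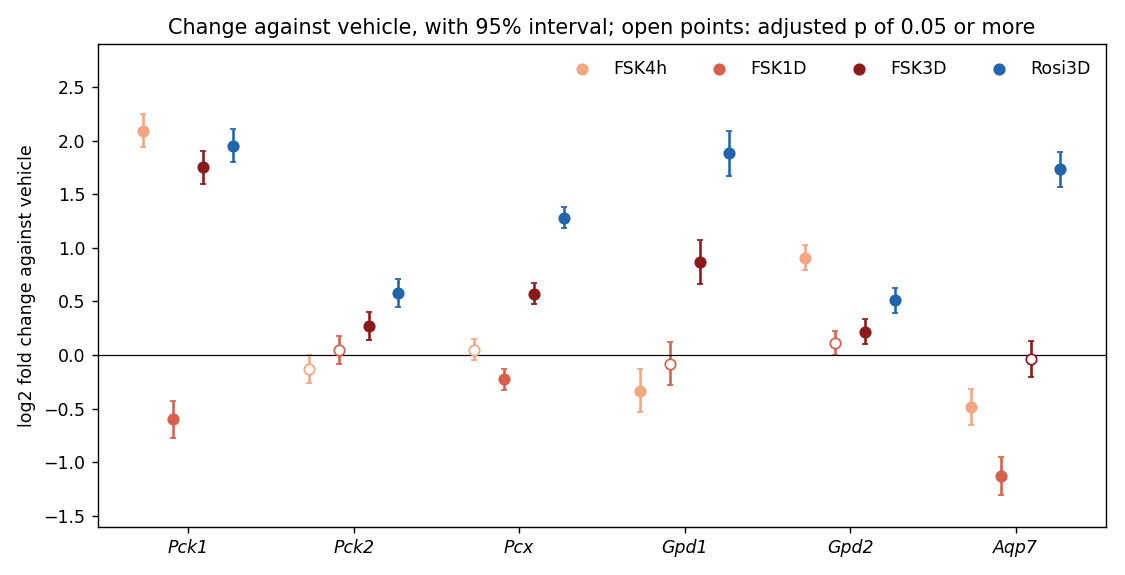
The log2 fold change against vehicle (vertical axis) of each of the 6 genes in FSK4h, FSK1D, FSK3D and Rosi3D, with the 95% interval as bars and open points where the adjusted p was 0.05 or more. Pck1 was at 2.09, -0.60, 1.75 and 1.95, and Aqp7 at -0.49, -1.13, -0.04 and 1.73.

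At the matched time of 3 days, all 6 genes were lower with forskolin than with rosiglitazone. In this comparison 43.1% of tested genes were called, 22.5% higher and 20.7% lower. The differences, forskolin against rosiglitazone, were -0.20 ± 0.069 for Pck1, -0.29 ± 0.057 for Gpd2 and -0.31 ± 0.064 for Pck2. They were larger for Pcx at -0.71 ± 0.048, for Gpd1 at -1.01 ± 0.094 (2.02-fold lower) and for Aqp7 at -1.77 ± 0.080 (3.41-fold lower, edgeR adjusted p = 1.24e-14). Of the 14421 tested genes, 99 had a lower log2 value than Aqp7 here. Of the 6 genes, Pck1 was the least and Aqp7 the most different between the drugs. Between forskolin times, 2 of the 6 were higher and 4 lower in FSK1D than in FSK4h, where 57.3% of tested genes were called (28.4% higher, 28.9% lower). In FSK3D against FSK1D, 5 were higher and Gpd2 was not called, where 51.0% of tested genes were called (25.2% higher, 25.8% lower). In FSK3D against FSK4h, 4 were higher and 2 lower, where 68.5% of tested genes were called (35.0% higher, 33.5% lower). With libraries scaled by totals alone, 68.8% of the genes called between FSK1D and FSK4h were higher instead of 49.6%, and 65.1% instead of 51.1% between FSK3D and FSK4h.

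Glycerol kinase, encoded by Gyk, is the other source of glycerol 3-phosphate, because it phosphorylates free glycerol that would otherwise leave through Aqp7. It is scarce in white fat and is known to be raised by PPARγ agonists and in thermogenic fat. Gyk was at 45.1, 48.6 and 49.4 CPM in vehicle and at 266, 284 and 276 CPM in FSK4h. No libraries overlapped, and the rise was 2.53 ± 0.067 on the log2 scale (5.77-fold, edgeR adjusted p = 2.46e-21). It stayed above vehicle at 192, 177 and 188 CPM in FSK1D (1.96 ± 0.067, edgeR adjusted p = 1.42e-18) and at 144, 152 and 140 CPM in FSK3D (1.60 ± 0.067, edgeR adjusted p = 1.29e-16). Rosi3D libraries were at 291, 266 and 339 CPM, a rise of 2.65 ± 0.067 (6.26-fold, edgeR adjusted p = 1.50e-21). In FSK1D, Gyk was therefore 3.88-fold above vehicle in the same libraries in which Aqp7 was 2.19-fold below it. Against FSK1D, Gyk in FSK3D fell by 0.35 ± 0.063 (edgeR adjusted p = 3.49e-05) while Aqp7 rose by 1.09 ± 0.086 (edgeR adjusted p = 2.59e-10).

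The other enzymes that make or use triose phosphates and glycerol 3-phosphate mostly rose. Of 7 tested, 5 were higher and 1 lower in FSK4h, 6 higher and 1 lower in FSK1D, 5 higher and 1 lower in FSK3D and 5 higher and none lower in Rosi3D. For this list and those below, the shares of all tested genes called higher and lower were 28.4% and 30.7% in FSK4h. They were 19.5% and 20.7% in FSK1D, 25.9% and 27.0% in FSK3D, and 28.6% and 32.0% in Rosi3D. The list's median log2 fold changes were 0.86, 1.26, 0.93 and 0.58. Tpi1, which interconverts the 2 triose phosphates, rose by 0.90, 1.37, 0.93 and 0.58 in the same order. Aldoc, an aldolase, was at 0.43 in FSK4h, not called, and rose by 2.26, 2.21 and 1.89 in the other 3 groups. Gpd1l, a relative of Gpd1, was the gene that was lower in the forskolin groups, at -0.50, -0.44 and -0.26, and it was not called in Rosi3D at 0.11.

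Genes that bring pyruvate and oxaloacetate to these enzymes were mixed at 4 hours. Of the 18 genes, 7 were higher and 5 lower in FSK4h, 9 and 6 in FSK1D, 12 and 4 in FSK3D, and 10 and 4 in Rosi3D, with medians of 0.11, 0.08, 0.42 and 0.56. With libraries scaled by totals alone, 7 were higher and 8 lower in FSK4h. The mitochondrial pyruvate carrier genes were at their highest at 3 days, with Mpc1 at 0.37, 0.78, 1.31 and 1.59 and Mpc2 at 0.13, 0.68, 0.99 and 1.40, of which the FSK4h value of Mpc2 was not called. Got1, the cytosolic aspartate aminotransferase, which can supply cytosolic oxaloacetate, rose by 2.24 in FSK4h (42.0 ± 1.02 to 198 ± 12.1 CPM, n = 3 each), by 0.71 in FSK1D and by 0.18 in FSK3D, and was not called in Rosi3D at -0.14. Slc25a10, a dicarboxylate carrier, was at -0.89, -0.43, 0.47 and 0.58, and Slc25a13, an aspartate-glutamate carrier, at -0.21, -0.48, -0.94 and -1.34, with all 8 values called.

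Esterification, the use to which glycerol 3-phosphate is put, had 4 of 11 tested genes higher and 4 lower in FSK4h, 3 and 5 in FSK1D, 7 and 1 in FSK3D, and 7 and 2 in Rosi3D. The medians were -0.12, 0.04, 0.49 and 0.25. Gpam, the acyltransferase of the first step, was at 0.28, -0.40, 0.49 and -0.02, the last not called. Dgat1, an enzyme of the last step, went from 243 ± 18.8 CPM in vehicle to 902 ± 18.4 in FSK4h, 216 ± 5.03 in FSK1D and 447 ± 13.6 in FSK3D (n = 3 each). Its log2 changes of 1.89, -0.17 and 0.88 were all called, so that Dgat1, like Pck1 and Gpam, was above vehicle at 4 hours, below it at 1 day and above it at 3 days. Dgat2, the other enzyme of that step, was not called in FSK4h at -0.20 and rose by 0.27 in FSK1D and 1.58 in FSK3D. Agpat2, an acyltransferase of the second step, fell by 0.14 in FSK4h and by 0.70 in FSK1D, then rose by 0.97 in FSK3D and by 2.26 in Rosi3D.

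Lipolysis frees the glycerol that Aqp7 exports. Of its 10 genes, 2 were higher and 5 lower in FSK4h, 2 higher and 4 lower in FSK1D, and 9 higher and 1 lower in both FSK3D and Rosi3D, with medians of -0.15, 0.08, 0.71 and 1.21. Pnpla2, the triglyceride lipase, was not called in FSK4h at 0.02, fell by 0.38 in FSK1D and rose by 0.60 and 1.26 at 3 days of forskolin and rosiglitazone. Lipe, the hormone-sensitive lipase, was not called in FSK4h at 0.10 or in FSK1D at 0.08 and rose by 0.72 and 1.04 at 3 days. Mgll, the monoglyceride lipase that releases the glycerol, rose by 0.30, 0.67, 1.26 and 1.16. G0s2, an inhibitor of the triglyceride lipase, fell by 1.35 in FSK4h, was not called in FSK1D at 0.08 and rose by 0.67 and 1.45 at 3 days. The list also holds Abhd5, at 0.93, 0.74, 0.84 and 1.47, and Plin1, at -0.44, -0.47, 0.41 and 0.77, all called. Because it mixes lipases with an inhibitor, its counts describe genes and not the direction of lipolysis. Scaled by library totals alone, the FSK4h counts were 2 higher and 7 lower for esterification, and 1 higher and 6 lower for lipolysis. With RLE factors, the size factors of DESeq2, esterification had 4 higher and 2 lower in FSK4h and 7 higher and 1 lower in Rosi3D.

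**Figure D4:**
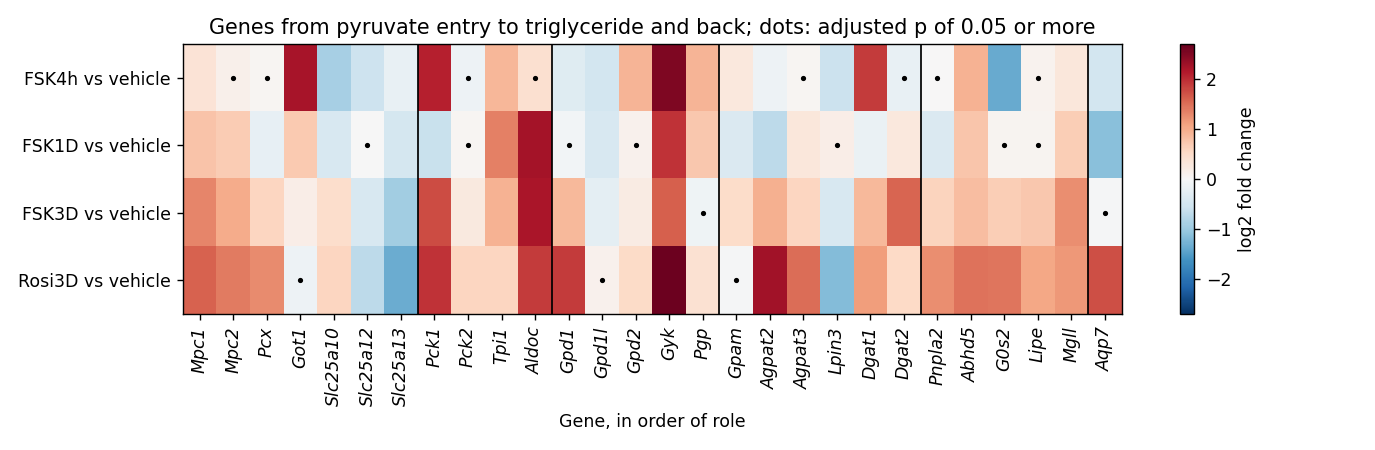
Colour gives the log2 fold change against vehicle (rows, 4 groups) of 28 genes in order of role, from pyruvate and oxaloacetate supply through carboxykinases, triose and glycerol 3-phosphate enzymes, esterification and lipolysis to Aqp7, with a dot where the adjusted p was 0.05 or more. Gyk is above vehicle in every row (2.53, 1.96, 1.60 and 2.65), while Pck1, Gpam and Dgat1 change from above to below vehicle between FSK4h and FSK1D.

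Regulators that are known to act on Pck1 moved in several directions. Of 19 tested, 10 were higher and 3 lower in FSK4h, 5 and 7 in FSK1D, 13 and 5 in FSK3D, and 11 and 5 in Rosi3D. With library totals alone, 8 were higher and 8 lower in FSK4h. Ppargc1a, the coactivator PGC-1α, was at 31.6 ± 0.416 CPM in vehicle and 102 ± 4.95 in Rosi3D (n = 3 each). Under forskolin it was at 73.8 ± 11.5, then 18.3 ± 1.46, then 49.3 ± 1.57 CPM. Its log2 changes of 1.22, -0.79, 0.64 and 1.69 were all called, beside 2.09, -0.60, 1.75 and 1.95 for Pck1 in the same order. Ppargc1b, its relative, was at 0.45, -0.98, 0.66 and 1.94. Crem, whose inducible form ICER represses cAMP response elements, rose by 3.14, 1.61, 1.04 and 0.52, from 10.7 ± 0.932 CPM in vehicle to 93.8 ± 2.32 in FSK4h, and the counts do not separate that form from the others of the gene. Pparg was called in FSK3D alone, at 0.58, with 0.04, -0.02 and -0.06 in FSK4h, FSK1D and Rosi3D. Hnf4a, a liver regulator of Pck1, had at most 0.0310 CPM in any group mean and was not tested. The part of any of these regulators in the changes of Pck1 was not tested.

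ATF4 and its known targets, the group to which Pck2 belongs, were higher more often than lower. Of 20 genes, 15 were higher and none lower in FSK4h, 11 and 2 in FSK1D, 16 and 3 in FSK3D, and 17 and 2 in Rosi3D, with medians of 0.50, 0.19, 0.50 and 0.50. Pck2 itself was not called at the first 2 of these times. Slc7a11, the cystine carrier, rose by 1.26, 1.21, 1.80 and 1.56, and Trib3 by 0.58, 0.91, 1.90 and 1.20. Ddit4 was at 2.98, 2.57, 1.64 and -0.35, all called. Slc7a5, a subunit of the large neutral amino acid carrier, rose by 1.17 in FSK4h and then stood at -0.76, -0.47 and -0.32, all called lower. With library totals alone, 12 of the 20 were higher and 3 lower in FSK4h.

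The genes most like each member over the 15 libraries were found by Pearson's r of log2 CPM, as a description, since the libraries fall into 5 groups and share depth and treatment. For Pck1 they were Pgrmc2 (0.973), Slc25a33 (0.973) and Klhl7 (0.963). Slc25a33, a mitochondrial pyrimidine nucleotide carrier, had log2 changes of 0.78, -0.23, 0.90 and 0.95. For Pcx they were Uqcrc1 (0.996), a subunit of respiratory complex III, Agpat2 (0.994) and Dlat (0.994), a subunit of pyruvate dehydrogenase. For Gpd1 they were Sfxn1 (0.998), Fgfrl1 (0.995) and Hadh (0.994), of which Hadh encodes an enzyme of fatty acid oxidation. For Aqp7 they were Gyg (0.996), which primes glycogen synthesis, Nabp1 (0.990) and Acss2 (0.990). For Gpd2 they were Picalm (0.979), Xpot (0.978) and Hspb8 (0.975), and for Pck2 Dcun1d4 (0.977), Grcc10 (0.976) and Pdpr (0.968). Among the members, Pcx, Gpd1, Pck2 and Aqp7 had r of 0.811 to 0.965 with each other, and Pck1 was nearest to Gpd2 (0.752). Gpd1 and Gpd2 had an r of 0.02, and Pck2 and Gpd2 one of -0.05.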

How the data were processed

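Total RNA depleted of ribosomal RNA was sequenced from 15 libraries. The authors deposited raw whole-number counts of reads for each gene. Per the submitters' processing notes, fastp, STAR and featureCounts were used on GRCm38 (mm10). Versions, annotation, and the treatment of strand, mates and multiply matching reads are not stated there. Low counts were mostly even (407 to 539 genes with a count of 1, 721 to 907 with a count of 2), so halved counts were an alternative. Library totals were 14056200 to 56282582 counts. Columns name a group and a running number (S1 to S15), not the labels' replicate number. Within groups, libraries differed by more than sampling noise (chi-square per degree of freedom 3.12 to 11.2, r 0.987 to 0.993 across genes), and none was dropped.

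filterByExpr left 14421 genes. They were tested in R 4.3.3 with edgeR 4.0.16 (TMM, robust quasi-likelihood fit of 1 mean per group over 15 libraries, two-sided, Benjamini-Hochberg adjustment over all tested genes, called at 0.05), a step tested on simulated data. The SE is the log2 fold change divided by the square root of F. FSK4h libraries had a mean TMM factor of 0.907, and the other groups 1.02 to 1.04. CPM per kilobase uses the deposited gene length. Ratios within a library used counts plus 0.5 and exact permutation tests. Promoter windows (250 bases) came from RefSeq and were searched whole, and only the printed stretches were cut at the GENCODE start. Gene positions came from GENCODE vM21, in which 95.7% of the table's symbols were found.

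The members and gene lists were chosen with earlier results of these data known. Most genes named beside the 6 were fixed pathway genes or among the 3 genes most like each member. Others were among the up to 2 called genes per direction with the largest change from each list. Not every gene that met this rule is named, and some outside it are, such as Pparg and Hnf4a. Alternatives were other scalings, DESeq2 1.42.0, other filters, 2 groups alone, Rn45s left out, halved counts, and each library left out.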

Additional observations from a re-analysis of the deposited data

Results flagged for a closer look

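The effect of forskolin on 3 of the 6 genes differed between times, with the fold change against vehicle called in opposite directions at the times compared, and the difference itself was tested in the edgeR fit. How many of all tested genes met this rule was not counted. Of all tested genes, 57.3% were called between FSK1D and FSK4h, 51.0% between FSK3D and FSK1D and 68.5% between FSK3D and FSK4h. Pck1 was above vehicle at 4 hours and below it at 1 day, and FSK1D differed from FSK4h by -2.69 ± 0.079 on the log2 scale (edgeR adjusted p = 2.48e-24), lower in all 3 libraries. Pck1 then turned from below to above vehicle, and FSK3D differed from FSK1D by 2.35 ± 0.080 (edgeR adjusted p = 4.50e-22). Pcx was below vehicle at 1 day and above it at 3 days, a difference of 0.80 ± 0.048 (edgeR adjusted p = 9.84e-16). Gpd1 was below vehicle at 4 hours and above it at 3 days, a difference of 1.20 ± 0.094 (edgeR adjusted p = 8.03e-08). Summed adipocyte markers were at 13428 to 15275 CPM in FSK4h, 10205 to 11565 in FSK1D and 21530 to 22488 in FSK3D, and their part in these differences was not tested.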

How the results depend on the processing

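No paired analysis was possible because the columns carry none of the labels' replicate numbers. Of 384 values of the 6 genes under scaling, tool, filter, sample and count alternatives, 380 kept their direction and side of the threshold. The exceptions were, with library totals alone in FSK4h against vehicle, Pck2 at -0.32 and Pcx at -0.14, and for Gpd2 in FSK1D against vehicle 0.13 with no low-count filter and 0.13 with only the 2 groups. Leaving out 1 library kept 271 of 288 values. Over those fits the log2 differences ran from -0.14 to 0.018 for Gpd1 (0.018 without vehicle S2, 0.01 without FSK1D S9) and from 0.10 to 0.16 for Gpd2 in FSK1D against vehicle, from -0.078 to 0.063 for Aqp7 in FSK3D against vehicle (0.063 without vehicle S2, 0.03 without FSK3D S11), from 0.17 to 0.33 for Gpd1 and from 0.14 to 0.22 for Pck2 in FSK1D against FSK4h, from 0.14 to 0.28 for Pck2 in FSK3D against FSK1D, and from -0.22 to -0.19 for Pck1 in FSK3D against Rosi3D. The cause was not tested. The number of the 6 genes called and the number of all genes called stayed within 1.5 times in each comparison, and all differences in the 2 ratios kept their direction. Of 256 list counts under 2 other scalings, 15 moved by more than 1.5 times, mostly in FSK4h. Depth limited Aqp3, Aqp8 and Aqp9, which had 0 to 22 counts in a library.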

Other observations

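Aqp7 was not the only channel gene to move. Aqp1, a water channel that does not carry much glycerol, was at 32.9 ± 1.35 CPM in vehicle and 3.18 ± 0.421 CPM in Rosi3D (n = 3 each). Under forskolin it was at 35.1 ± 1.87 CPM after 4 hours, 94.3 ± 19.0 after 1 day and 34.6 ± 3.17 after 3 days. It rose by 1.52 on the log2 scale in FSK1D and fell by 3.32 in Rosi3D, both called by edgeR, which are the groups in which Aqp7 was lowest and highest. The glycerol channels Aqp3 and Aqp9 had at most 8 and 4 counts in any library. Of 5 other aquaporins tested, 2 were higher in FSK1D, 2 lower in Rosi3D and none was called in FSK4h or FSK3D.

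Pcx needs biotin, which Hlcs attaches. Of the 9 genes of biotin supply and the other biotin-dependent carboxylases, none was higher and 6 were lower in FSK4h, none and 7 in FSK1D, 8 and none in FSK3D, and 9 and none in Rosi3D, with medians of -0.34, -0.33, 0.45 and 0.58. Hlcs fell by 1.13 in FSK4h, was not called at -0.04 in FSK1D or 0.19 in FSK3D and rose by 0.49 in Rosi3D. Acacb, a carboxylase that makes malonyl-CoA at mitochondria, fell by 0.41 and 1.13 in FSK4h and FSK1D and rose by 0.77 and 2.20 in FSK3D and Rosi3D. The adipocyte markers, with 3 higher and 1 lower of 10 in FSK4h, 1 and 4 in FSK1D, 10 and none in FSK3D and 8 and 1 in Rosi3D, moved beside them, and their part was not tested.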
